A study of Mus musculus with 47 samples.

Results

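Spi1, Cebpa, Cebpb, Cebpd, Maf, Runx1, Klf4 and Zeb2, 8 transcription factors of the macrophage lineage, were followed through the RNA-seq libraries of the study. They were found by gene symbol in the deposited gene tables, where all 8 are among the 51912 genes listed for bone marrow-derived macrophages (BMDMs). RNA-seq made up 12 of the 47 samples, 6 libraries from BMDMs and 6 labelled Raw264.7, a mouse macrophage-like cell line, and the remaining samples (ChIP-seq and ATAC-seq) were not used here. BMDMs of C57BL/6 mice were grown for 5 days with 20 ng/ml M-CSF, then left untreated (NT, labelled M0) or given LPS, a bacterial cell wall component, at 100 ng/ml (labelled M1) or the cytokine IL-4 at 20 ng/ml (labelled M2) for 6 h. Zmynd8 cKO mice carried Zmynd8 flox/flox alleles, with LoxP sites around exons 6 and 7, and 1 copy of Lyz2-Cre, so deletion is limited to cells that use the Lyz2 locus. WT mice were littermates with the same floxed alleles and no Cre, so both groups carry the flox. The age of the mice is not given in the sources used here. The Raw264.7 libraries were labelled p65 KO with LPS, p65 KO rescued with WT p65 and LPS, p65 KO rescued with K122R (a p65 mutant with arginine in place of a lysine) and LPS, Zmynd8 KO, Zmynd8 KO rescued with Zmynd8, and Zmynd8 KO rescued with D/E-A, a ZMYND8 mutant in which acidic residues are replaced by alanine. Knockout in these lines was made with lentiviral CRISPR guides. The titles of the Zmynd8 lines give no treatment. The text of the study says that the RNA of the Zmynd8 rescue and D/E-A came from cells given LPS, and for Zmynd8 KO the treatment is not given in the sources used here. The heading of the WT p65 column gives WT and LPS without mention of the p65 KO.

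In macrophages, PU.1, the product of Spi1, is an ETS-family factor that opens chromatin and marks most myeloid enhancers, usually together with C/EBP proteins and Runx1. C/EBPα sets up the myeloid programme in precursors, whereas C/EBPβ and C/EBPδ are classed as inducible members of the same bZIP family that act on cytokine, acute-phase and arginase genes. c-Maf, the product of Maf, is a bZIP factor associated with self-renewal control and Il10 expression, Klf4 is a zinc-finger factor linked to monocyte differentiation and to IL-4 responses, and Zeb2 is a zinc-finger repressor that helps to hold tissue macrophage and dendritic cell identity.

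The start regions of the members whose messages changed most after LPS are shown first, because these were the widest movements among the 8 genes. RefSeq promoter windows on GRCm38.p6, the build known as mm10, were listed for 5 of the 8 members (9 windows among 32851), and the 250 bases before the start are given 5′ to 3′ on the strand of the gene, with motif matches in capitals.
Cebpa (chr7:35119043-35119292, + strand): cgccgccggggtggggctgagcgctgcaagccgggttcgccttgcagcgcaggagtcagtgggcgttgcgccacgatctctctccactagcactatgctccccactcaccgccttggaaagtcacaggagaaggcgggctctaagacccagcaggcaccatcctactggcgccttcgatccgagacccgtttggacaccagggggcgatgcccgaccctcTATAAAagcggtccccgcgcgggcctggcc
Cebpb (chr2:167688665-167688914, + strand): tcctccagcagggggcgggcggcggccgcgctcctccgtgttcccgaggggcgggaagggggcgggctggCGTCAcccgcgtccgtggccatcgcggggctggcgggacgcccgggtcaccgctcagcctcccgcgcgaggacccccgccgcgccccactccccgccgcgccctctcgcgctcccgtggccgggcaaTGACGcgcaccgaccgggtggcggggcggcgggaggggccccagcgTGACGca
Klf4 (chr4:55532476-55532725, - strand): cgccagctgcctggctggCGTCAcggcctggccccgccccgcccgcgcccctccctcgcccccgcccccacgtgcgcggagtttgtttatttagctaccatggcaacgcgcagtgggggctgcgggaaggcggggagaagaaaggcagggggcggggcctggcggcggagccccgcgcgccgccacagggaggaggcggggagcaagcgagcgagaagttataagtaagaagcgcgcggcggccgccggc
Both strands of the windows were searched for the TATA box, TATAAA, and for the core of a cAMP response element, TGACG. The C/EBP motif was written as TTNNGNAA and the ETS core bound by PU.1 as GAGGAA. For AP-1 the letters were TGANTCA. The RUNX motif was TGTGGT, and the NF-κB motif was searched as well. None of these matches overlapped another in the 3 windows shown. In Cebpa the capitals mark a TATAAA that begins 30 bases before the start, and 12.4% of all windows of this length hold that motif. In Cebpb they mark 3 copies of TGACG, 1 of them read on the opposite strand, beginning 180, 53 and 7 bases before the start. At least 1 copy was present in 17.8% of all windows and at least 3 copies in 0.688%. These shares are over all windows and not over windows as rich in G and C as that of Cebpb. The Klf4 window held 1 copy on the opposite strand, 232 bases before the start. G and C made up 66.4% of the bases in Cebpa, 81.6% in Cebpb and 74% in Klf4, against a median of 52.4% over all windows. GAGGAA was found in all 4 windows listed for Zeb2, of which a pair overlap, and in 1 of the 2 for Runx1 (23.3% of all windows). TGANTCA was found in 1 Zeb2 window, 2 times (6.75% of all windows hold it), TTNNGNAA in another (36.8%), and TGACG in the pair that overlap. No NF-κB motif (1.41% of all windows) or TGTGGT (14%) was found in any of the 9 windows. These matches describe letters only.

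Each BMDM library was made from 3 biological replicates mixed before sequencing, so every group is 1 library and no difference in this report has a replicate check. Counts are given as CPM, which scales them to the library total. Ratios are log2 of CPM plus 1, and the values in parentheses after a ratio are 95% Clopper-Pearson limits on the reads, which leave out the added 1 and cover counting error only. A gene was called higher or lower when its ratio passed 1.2-fold, the fold named in the study's Methods. The study also set a limit of 0.05 on p and false discovery rate, which these calls leave out. A figure legend of the study puts the 1.2 on the log2 scale. BMDM libraries held 22597425 to 28386646 counts and Raw264.7 libraries 15127110 to 21042628 reads. All 8 macrophage markers (Csf1r, Itgam, Adgre1, Cd68, Fcgr1, Mertk, Cd14 and Lyz2) were above 1 CPM in the BMDM libraries and in the Zmynd8 lines, and 7 of 8 in the p65 lines, where Mertk was at 0.132 to 0.255 CPM. They summed to 4978 to 9447 CPM in the Zmynd8 lines and to 1905 to 2281 CPM in the p65 lines, of which Lyz2 was 2105 to 4992 and 279 to 315 CPM. Some libraries stood apart in markers of other cells. Neutrophil markers summed to 382 and 514 CPM in the IL-4 libraries (7 of 8 above 1 CPM) and to 2.33 to 4.22 CPM in the NT and LPS libraries, where 1 of 8 was above 1 CPM and Elane was at 0 in each. The titles number the IL-4 libraries in another range than the NT and LPS libraries, so treatment and that difference cannot be told apart. In the Zmynd8 lines neutrophil markers summed to 4422 to 10353 CPM (8 of 8) and B cell markers to 102 to 147 CPM (4 of 4), against 0.180 to 0.319 CPM and 5.42 to 8.17 CPM in the p65 lines. Mast cell markers (4 of 4 above 1 CPM) summed to 13.2 to 13.6 CPM and erythroid markers (3 of 4) to 8.92 to 22.6 CPM in the Zmynd8 lines, and neither list had a marker above 1 CPM in the p65 lines. T cell markers (2 to 4 of 4 above 1 CPM) summed to 18.2 to 19.1 CPM in the Zmynd8 lines and to 0.0600 to 0.192 CPM (0 of 4) in the p65 lines. Stromal markers went the other way, with 8.35 to 11.97 CPM (3 of 4) in the p65 lines and 0.948 to 1.41 CPM (0 to 1 of 4) in the Zmynd8 lines. Both sets of lines thus held genes that mark other cells than macrophages, and they are named by their labels only. Of 6 dendritic cell markers, 2 were above 1 CPM in the IL-4 libraries and 1 to 3 in the NT and LPS libraries, and most of their sum was Itgax, at 242 CPM in WT and 209.5 CPM in cKO after IL-4 and 26.8 to 67.8 CPM in the others. In bulk RNA, fewer cells of a type and less RNA per cell cannot be told apart.

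Zmynd8 itself did not separate the BMDM genotypes, with log2 ratios of the library labelled cKO over WT of -0.10 in NT, 0.13 after LPS and 0.24 after IL-4. Counts per gene do not show whether the floxed exons were lost, so these libraries are also named by their labels. Lyz2, the gene whose locus drives Cre, was lower in each of them, at -0.60, -1.25 and -0.77. In the Raw264.7 lines, Rela (which encodes p65) had 765 reads in p65 KO, 1601 in the WT p65 library and 5850 in K122R. The Zmynd8 gene had 485 reads in the Zmynd8 rescue and 497 in D/E-A, and its deposited value in Zmynd8 KO, 116, was the only value in that table that is not a whole number of reads.

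Per unit of transcript length (TPM, which also scales by library), Spi1 had the highest level of the 8 members in each of the 6 BMDM libraries, from 293 TPM in the cKO NT library to 733 TPM in the WT IL-4 library. Only 1.2% to 2.69% of the genes with a TPM above 0 stood higher. Without treatment Cebpa was second in both genotypes, with 112 TPM in WT and 97.1 TPM in the library labelled cKO. After LPS Cebpb took the second place, with 193 and 279 TPM, and after IL-4 Zeb2 did, with 209 and 192 TPM. Cebpd was the lowest member in every BMDM library, from 2.09 to 6.98 TPM. In NT its counting limits met those of Klf4 in both genotypes (3.49 and 3.52 TPM in WT), as did those of Cebpa and Runx1 in WT after LPS (6.96 and 6.86 TPM) and of Runx1 and Cebpb in WT after IL-4 (35.2 and 32.6 TPM). All other neighbours in the order were further apart than their counting limits.

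**Figure D1:**
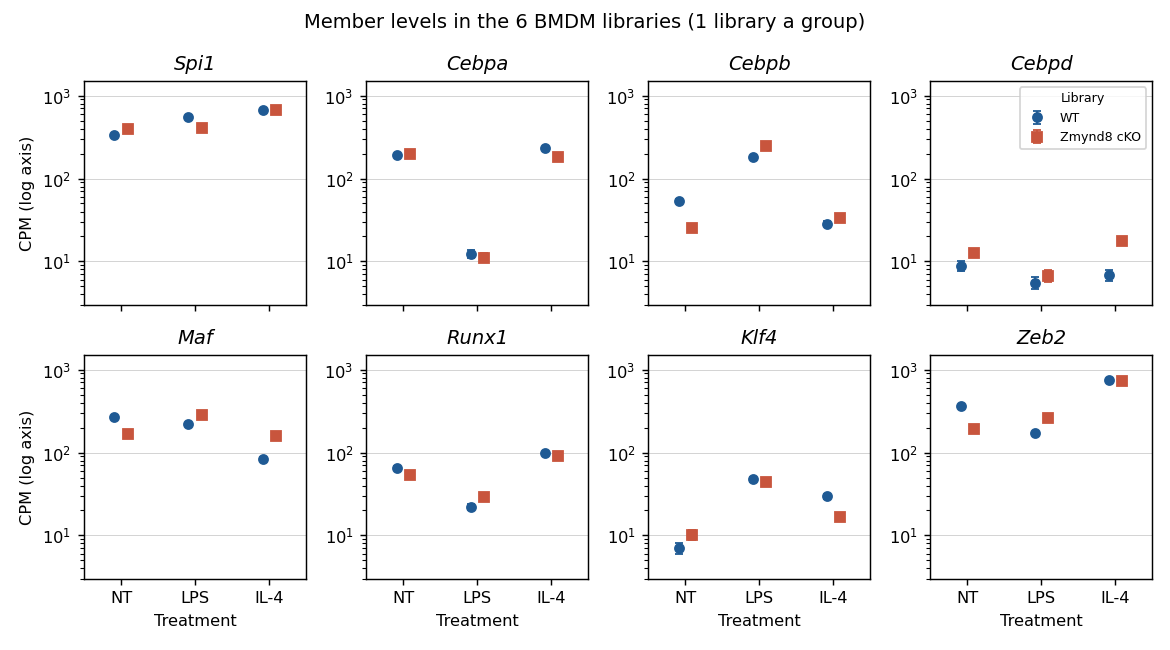
Level of each member in CPM (log axis) in the 6 BMDM libraries, with WT as circles and the library labelled Zmynd8 cKO as squares for NT, LPS and IL-4. Bars are 95% counting limits, mostly hidden by the symbols, and there is 1 library for each point. Cebpa drops to 12.3 and 11.1 CPM after LPS while Cebpb reaches 181 and 246 CPM, and the genotypes part in NT for Cebpb, Maf and Zeb2.

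After LPS the balance between the C/EBP factors turned over in both genotypes, with Cebpa lower and Cebpb higher. Cebpa (ENSMUSG00000034957, mm10 chromosome 7, 35119293 to 35121928, + strand), the C/EBP of myeloid precursors, stood at 191 CPM in WT NT, 12.3 in WT LPS and 231 in WT IL-4, and at 196, 11.1 and 180.4 CPM in the libraries labelled cKO. Both LPS libraries were far below the other 4, which lay close together. The log2 ratio of LPS over NT was -3.85 (-4.13 to -3.79) in WT and -4.03 (-4.33 to -3.96) in cKO, a 14.4-fold and a 16.3-fold lower level. Only 1.55% and 1.67% of the genes tested (12813 and 12666 genes that averaged 10 counts or more) lay further from 0. Cebpb (ENSMUSG00000056501, chromosome 2, 167688915 to 167690432, + strand), the inducible member, had 53.0 CPM in WT NT, 181 in WT LPS and 28.6 in WT IL-4, and 25.4, 246 and 33.2 CPM in cKO. The 2 LPS libraries were the highest, and the cKO library went from the lowest of the 6 in NT to the highest after LPS. Its LPS ratio was 1.75 (1.68 to 1.86) in WT and 3.23 (3.16 to 3.41) in cKO. Per length, Cebpb was at 0.530 times the level of Cebpa in WT NT and 0.245 times in cKO NT, and at 27.7 and 41.5 times after LPS. After IL-4 it was again below Cebpa, at 0.207 and 0.313 times. Cebpd (ENSMUSG00000071637, chromosome 16, 15887286 to 15889545, + strand), the third C/EBP, stayed between 5.54 and 17.6 CPM in the 6 libraries. Its LPS ratio was -0.58 in WT and -0.84 in cKO, from 230 to 138 and from 288 to 157 counts.

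With 1 exception among 16 values, every member passed 1.2-fold after LPS, 3 higher and 5 lower in WT and 4 higher and 3 lower in cKO. A call of this size was common, since 84.8% of tested genes passed it in WT (21.7% higher and 63.1% lower) and 85.5% in cKO (25% and 60.5%). The number of members past 1.2-fold in either direction is close to that background. The median log2 ratio of all tested genes was -0.58 in WT and -0.55 in cKO, so the ratios of members are to be read against it. Scaling by the median of ratios brought it to -0.07 in both. Genes called higher were 25.6% of all calls in WT and 29.3% in cKO with library totals, and 46.1% and 47.4% with the median of ratios. Maf was lower in WT with library totals (-0.27) but higher with the median of ratios (0.34) and with TMM (0.32), so its direction there depends on the scaling. Cebpd in WT moved from -0.58 to -0.05 with the median of ratios and was then no longer called. For Spi1 in cKO the value went from 0.02 to 0.59. Other LPS ratios kept their sign with the median of ratios but moved by more than 1.5 times. In WT Spi1 went from 0.72 to 1.33, Runx1 from -1.53 to -0.94 and Zeb2 from -1.11 to -0.50. In cKO Zeb2 went from 0.47 to 1.05, Maf from 0.74 to 1.31, Runx1 from -0.86 to -0.30 and Cebpd from -0.84 to -0.32. At 2-fold 5 members passed in WT, against 43.3% of genes, and 3 in cKO, against 46%. The directions of Cebpa, Cebpb, Klf4, Runx1 and Zeb2 were the same under each scaling in both genotypes.

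Spi1 and Runx1, the factors that work with C/EBP at myeloid enhancers, had LPS ratios of opposite sign in WT under each scaling. Spi1 (ENSMUSG00000002111, chromosome 2, 91082374 to 91115759, + strand) had 332 CPM in WT NT, 548 in WT LPS and 679 in WT IL-4, and 397, 403 and 663 CPM in cKO. It was lowest in the WT NT library and highest in both IL-4 libraries. Its LPS ratio was 0.72 (0.68 to 0.76) in WT and 0.02 (-0.02 to 0.06) in cKO. Runx1 (ENSMUSG00000022952, chromosome 16, 92601466 to 92826074, - strand), a Runt-domain factor of early blood development, had 65.3, 22.0 and 99.1 CPM in WT and 53.9, 29.3 and 92.04 CPM in cKO for NT, LPS and IL-4. The LPS libraries were lowest and the IL-4 libraries highest, without overlap between treatments. The LPS ratio of Runx1 was -1.53 (-1.71 to -1.43) in WT and -0.86 (-1.01 to -0.74) in cKO.

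Klf4 (ENSMUSG00000003032, chromosome 4, 55527137 to 55532475, - strand) was the member with the largest increase in WT after LPS. It had 7.02 CPM in NT, 47.3 after LPS and 29.7 after IL-4 in WT, and 10.1, 43.9 and 16.8 CPM in cKO. Both NT libraries were below all treated ones. The LPS ratio was 2.59 (2.53 to 2.99) in WT and 2.01 (1.91 to 2.33) in cKO, a 6.03-fold and a 4.03-fold higher level, and 6.36% of tested genes lay further from 0 in WT. After IL-4 it was 1.93 (1.85 to 2.32) in WT, with 4.63% of tested genes further from 0, and 0.68 (0.50 to 0.97) in cKO.

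Zeb2 and Maf were the members whose LPS ratios had opposite signs in the 2 genotypes under library totals. Zeb2 (ENSMUSG00000026872, chromosome 2, 44983512 to 45117442, - strand) had 368 CPM in WT NT, 170.3 in WT LPS and 747 in WT IL-4, and 189.9, 264 and 739.7 CPM in cKO. The IL-4 libraries were highest and nearly equal, and the order of the genotypes in NT was the reverse of that after LPS. The LPS ratio was -1.11 (-1.16 to -1.06) in WT and 0.47 (0.42 to 0.53) in cKO, where it was 1.09 on the deposited TPM values and 1.05 with the median of ratios, and the IL-4 ratio was 1.02 (0.99 to 1.06) in WT and 1.96 (1.91 to 2.01) in cKO. Maf (ENSMUSG00000055435, chromosome 8, 115703253 to 115706894, - strand) had 269, 224 and 84.2 CPM in WT and 168, 281 and 160.4 CPM in cKO for NT, LPS and IL-4. The WT IL-4 library was the lowest of the 6. Its IL-4 ratio was -1.67 (-1.75 to -1.61) in WT, where 6.32% of tested genes lay further from 0, and -0.07 (-0.13 to 0.00) in cKO. After LPS it was -0.27 in WT, but 0.34 with the median of ratios, and 0.74 (0.68 to 0.80) in cKO.

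After IL-4, 8 of 8 members passed 1.2-fold in WT, 5 higher and 3 lower, and 6 of 8 in cKO, all higher. Both responses of a genotype share its NT library. The background was 64.4% of 13090 genes in WT (41.3% higher and 23.1% lower) and 70.9% of 12966 in cKO (44.7% and 26.2%), with median log2 ratios of 0.15 and 0.17. At 2-fold, 4 members passed in WT (Spi1, Zeb2 and Klf4 higher and Maf lower), where 16.2% of tested genes did, and 1 in cKO (Zeb2), where 21.1% did. With the median of ratios Spi1 (0.86) and Zeb2 (0.85) in WT fell short of 2-fold. On the deposited TPM values Spi1 in cKO passed 2-fold, from 293 TPM in NT to 658 after IL-4. The median ratio of all tested genes was 0.34 on that scale. With the median of ratios the genes called higher went from 64.1% to 50.4% of the calls in WT and from 63.1% to 50.8% in cKO, and Cebpa in WT went from 0.28 to 0.11 and was no longer called. In cKO the members called went from 6 higher and 0 lower to 4 and 1 with the median of ratios and to 4 and 2 with TMM. Of all genes 71.27% and 71.53% were called under these 2 scalings. Cebpb (from 0.38 to 0.19 with the median of ratios) and Cebpd (from 0.44 to 0.25) lost their calls, Cebpa went from -0.12 to -0.31 and was called lower, and with TMM Maf was called lower as well (-0.29). On the deposited TPM values Cebpa in cKO was at 0.29 and Maf at 0.17, against -0.12 and -0.07, so the direction of both depends on the scale. The summed neutrophil markers went from 2.33 and 2.35 CPM in NT to 382 and 514 CPM after IL-4, and their part in these ratios was not tested.

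**Figure D2:**
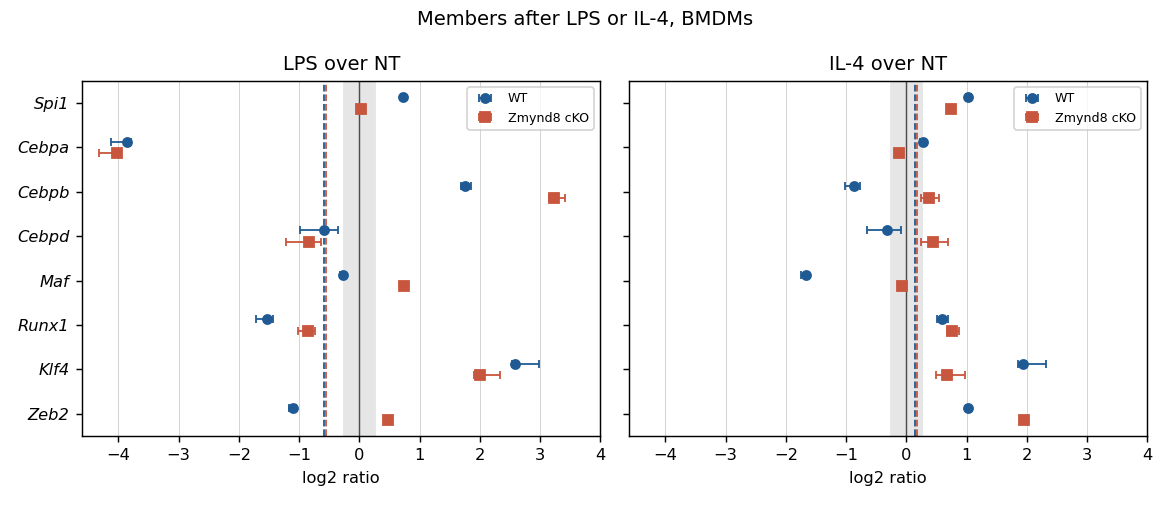
Log2 ratio of LPS over NT (left) and IL-4 over NT (right) for each member in WT (circles) and in the library labelled Zmynd8 cKO (squares), with 95% counting limits. The grey band marks less than 1.2-fold, and dashed lines mark the median of all tested genes, at -0.58 and -0.55 in the LPS panel and at 0.15 and 0.17 in the IL-4 panel. Cebpa lies near -4 after LPS in both genotypes, and Zeb2 and Maf lie on opposite sides of 0, which for Maf holds with library totals and not with the median of ratios or TMM.

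Between the genotypes, untreated cells labelled cKO had less Cebpb, Zeb2 and Maf than WT, and LPS-treated cells had more of the same 3 messages. In NT 6 of 8 members passed 1.2-fold, 2 higher and 4 lower, against 54% of all 12463 tested genes (25% higher and 29% lower). Cebpb was lower by 2.05-fold (-1.04, -1.21 to -0.92), Zeb2 by 1.93-fold (-0.95, -1.01 to -0.90) and Maf by 1.60-fold (-0.68, -0.74 to -0.62). Only 3.47% of tested genes lay further from 0 than Cebpb and 4.36% further than Zeb2, whereas 12.3% lay further than Maf. Runx1 was lower by 1.21-fold (-0.27), a difference that 52.4% of all genes exceeded. Cebpd (230 counts in WT and 288 in cKO) and Klf4 (184 and 229 counts) were higher, by 0.49 and 0.47 on the log2 scale. Cebpa (0.04) and Spi1 (0.26) were within 1.2-fold. On the deposited TPM values the NT ratios were -1.53 for Zeb2, -1.29 for Cebpb, -0.88 for Maf and -0.54 for Runx1, where the median of all genes was -0.20, and Spi1 (-0.14) and Cebpa (-0.21) changed sign. On that scale Cebpd (0.23) and Klf4 (0.24) were no longer called, leaving 0 members higher and 4 lower, against 56.51% of all genes called. With TMM 3 were higher and 3 lower, against 54.14% of all genes called, as Runx1 (-0.25) lost its call and Spi1 (0.28) gained one. Genes called higher in NT were 46.3% of all calls on CPM and 22.0% on TPM. Of the 8 macrophage markers, the 7 other than Lyz2 summed to 7329 CPM in WT and 7469 CPM in cKO in NT, to 6386 and 6701 CPM after LPS and to 9639 and 9571 CPM after IL-4. These sums hide single markers that moved apart in NT, where on CPM 2 of the 7 were at least 1.2-fold higher in cKO and 4 lower. Cd14 went from 223 CPM in WT to 452 in cKO and Cd68 from 2555 to 3466, whereas Fcgr1 went from 788 to 448, Itgam from 862 to 525, Adgre1 from 1072 to 872 and Mertk from 98.8 to 40.4. After LPS 2 were higher and 1 lower, and after IL-4 2 and 2. The part of these markers in the genotype ratios was not tested. Lyz2 alone stood at 10950.4 and 7202 CPM, 6902 and 2892 CPM, and 8941 and 5245 CPM.

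After LPS 5 of 8 members passed 1.2-fold, 4 higher and 1 lower, with 35.9% of 12387 genes as background (22.6% higher and 13.3% lower). Zeb2 was 1.55-fold higher in the library labelled cKO (0.63, 0.58 to 0.69), with 5.11% of tested genes further from 0. Cebpb was 1.36-fold higher (0.44, 0.39 to 0.50), Runx1 1.32-fold (0.40, 0.25 to 0.58) and Maf 1.25-fold (0.32, 0.27 to 0.38). Spi1 was 1.36-fold lower (-0.44, -0.48 to -0.41). Cebpa, Cebpd and Klf4 were within 1.2-fold, and the counting limits of each included 0. Of all genes called there, 62.9% were higher, and 51.4% with the median of ratios. On the deposited TPM values 4 members were again higher and 1 lower, against 38.56% of all genes called. Zeb2 had 36.5 TPM in WT and 67.6 in cKO, and Runx1 6.86 and 11.3, further apart than on CPM.

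After IL-4 4 of 8 members passed, 2 higher and 2 lower, against 30.7% of 13245 genes (17.3% higher and 13.4% lower). Cebpd was 2.39-fold higher in the library labelled cKO (1.25, 1.13 to 1.62), from 193 counts in WT and 460 in cKO, and 1.00% of tested genes lay further from 0. Maf was 1.90-fold higher (0.92, 0.86 to 1.00) and 2.38% lay further. Klf4 was 1.72-fold lower (-0.78, -0.99 to -0.65), with 842 and 440 counts, and Cebpa 1.28-fold lower (-0.36, -0.41 to -0.30). Zeb2 (-0.01) and Spi1 (-0.04), the members with the highest CPM there, were nearly equal between the genotypes. The summed neutrophil markers were 382 CPM in WT and 514 CPM in cKO after IL-4, and their part in these ratios was not tested.

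**Figure D3:**
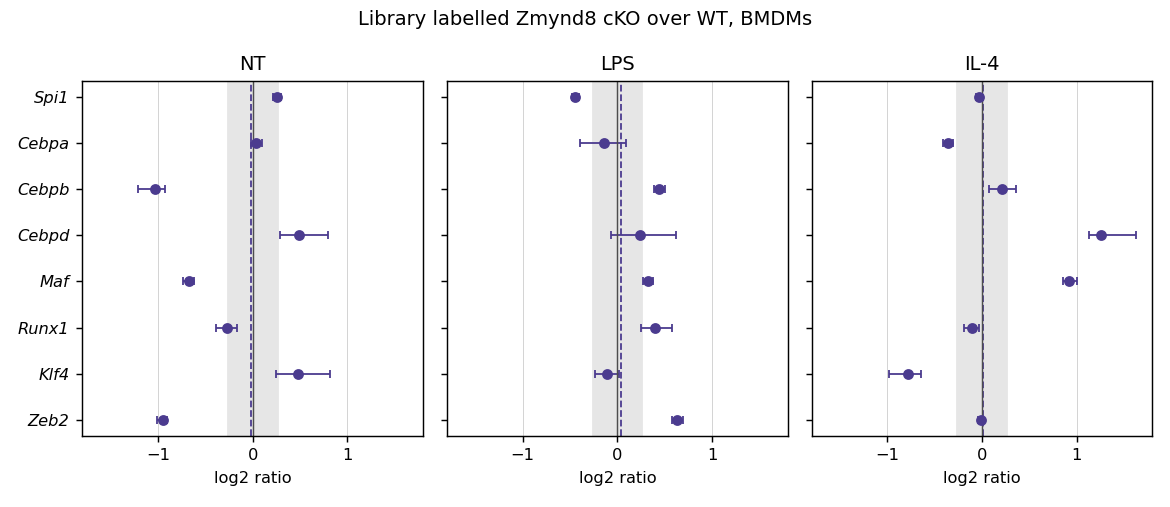
Log2 ratio of the library labelled Zmynd8 cKO over WT for each member in NT, LPS and IL-4, with 95% counting limits. The grey band marks less than 1.2-fold and the dashed line the median of all tested genes, which is within 0.04 of 0 in each panel. Cebpb, Maf and Zeb2 lie below 0 in NT and above 0 after LPS, and Cebpd and Maf lie furthest above 0 after IL-4.

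At 2-fold, 1 member passed in NT (Cebpb), 0 after LPS and 1 after IL-4 (Cebpd), where 3.83%, 0.904% and 1.97% of genes did.

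The genotype ratios of NT, LPS and IL-4 come from separate libraries, so their differences can be set side by side, although they could not be tested with 1 library a group. From NT to LPS the cKO over WT ratio went up by 1.58 for Zeb2 and 1.48 for Cebpb on the log2 scale, and 2.10% and 2.86% of the 11552 genes tested in both moved further. Maf went up by 1.00 (10.4% of genes moved further) and Runx1 by 0.67 (26.2%). On the deposited TPM values each of these rises was larger. Zeb2 had 92.1 TPM in WT and 31.15 in cKO in NT, and 36.5 and 67.6 after LPS. Runx1 had 21.6 and 14.5 TPM in NT, and 6.86 and 11.3 after LPS. The median ratio of all tested genes on that scale was -0.20 in NT and 0.09 after LPS. Lower in NT and higher after LPS, each by at least 1.2-fold, were 4 of 8 members and 12% of all genes. From NT to IL-4 Maf went up by 1.60 (1.90% of 12118 genes moved further) and Cebpb by 1.25 (3.50%), while Klf4 went from 0.47 to -0.78 (3.45%). The variation set for the edgeR test below was not measured. Each library mixes 3 biological replicates, so the setting may be too large for these libraries. Where the variation between biological samples was assumed at 0.2, the exact test of edgeR with Benjamini-Hochberg adjustment called 0 of 8 members between genotypes in NT, LPS or IL-4, against 2.19%, 0.299% and 1.21% of all genes. At an unadjusted p under 0.05 it called 2 in NT (Zeb2 and Cebpb), 0 after LPS and 2 after IL-4 (Maf and Cebpd), against 9.52%, 3.73% and 5.91% of all genes. With a 1.2-fold difference and an exact binomial test on the reads, which compares the 2 libraries alone, 6, 5 and 4 members were called, against 47.6%, 25.9% and 24.2% of all genes.

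Members that overlap another gene could share reads with it, since the use of strand in counting is not given in the sources used here. Zeb2os, antisense to Zeb2, had 392 to 781 counts in the BMDM libraries, against 4242 to 21212 for Zeb2. Tmem189, which overlaps Cebpb on the other strand, had 3314 to 6169 counts, more than Cebpb in 5 of the 6 libraries, and was highest in WT LPS and lowest in cKO IL-4. Spidr, beside Cebpd, had 347 to 455 counts, against 138 to 460 for Cebpd. The antisense partners of Maf, Cebpa and Runx1 had at most 77 counts, and Spi1 and Klf4 overlap no annotated gene.

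Other myeloid transcription factors were taken from a list of 22 genes. The highest and lowest gene of each list are named, leaving out genes under 100 counts on average in BMDMs or under an average value of 10 in Raw264.7. Of the 22 listed factors, 20 could be tested in NT between genotypes, 1 of them higher and 7 lower (25% and 29% of all genes). Their median log2 ratio was -0.21 against -0.01 for all genes. Klf6, a Klf4 relative, was lowest at -0.57 (7770 counts in WT and 4519 in cKO), and Id2, an inhibitor of helix-loop-helix factors, was highest at 0.19. After LPS 9 of 21 were higher and 8 lower (22.6% and 13.3% of all genes), with the early response gene Egr1 highest at 0.95 (79 and 166 counts). In IL-4, 5 of 22 were lower and 3 higher (13.4% and 17.3% of all genes), and Egr2, an IL-4-induced factor, was lowest at -0.89 (7515 and 3716 counts) with Zeb1, the Zeb2 relative, highest at 0.36. In the LPS response of WT 9 of 21 were higher and 11 lower (21.7% and 63.1% of all genes), from Runx3 at 1.84 to the lipid-sensing receptor Pparg at -3.87. The same genes were at the ends in cKO, with Runx3 at 2.05 and Pparg at -4.04, and 7 of 20 were higher and 10 lower (25% and 60.5%). In the IL-4 response 14 of 22 were higher and 5 lower in WT (median 0.96) and 15 and 4 in cKO (median 0.69), against 41.3% and 23.1% of all genes in WT (median 0.15) and 44.7% and 26.2% in cKO (median 0.17), with Egr2 highest in WT at 3.33 and Egr1 lowest at -2.98. In cKO the ends were Zeb1 (16 counts in NT and 423 after IL-4) and Egr1 at -2.33. The list holds factors of granulocytes and progenitors that had few counts in NT. In WT Myb went from 0 to 39 counts, Gfi1 from 0 to 28 and Cebpe from 13 to 53, while the summed neutrophil markers went from 2.33 to 382 CPM in WT and from 2.35 to 514 CPM in cKO. After LPS in WT, Myb had 3 counts, Gfi1 45 and Cebpe 37, and the neutrophil markers summed to 4.22 CPM. These markers differ in every comparison of IL-4 with NT, those of the C/EBP and PU.1 target lists included, and their part in the list counts was not tested.

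The 9 listed C/EBP target genes, several of which are also textbook NF-κB targets, had higher levels after LPS, when Cebpb was higher and Cebpa lower. All 9 were called higher after LPS in both genotypes, with median ratios of 4.41 in WT and 4.69 in cKO, while 21.7% and 25% of all genes were called higher. Nos2, the inducible nitric oxide synthase, went from 229 to 186078 counts in WT and from 96 to 173173 in cKO, and Il13ra1, a subunit of the IL-13 receptor, moved least, by 2.32 and 2.39. Between genotypes the list fell on the lower side in NT and on the higher side after IL-4. In NT none of 8 tested genes was higher and 6 were lower (median -0.31), against 25% and 29% of all genes (median -0.01), from Saa3, an acute-phase gene, at -0.29 to Nos2 at -0.89. After LPS 3 of 9 were higher and 4 lower (22.6% and 13.3% of all genes), with Il1b highest at 1.42 (1626 and 4137 counts) and Saa3 lowest at -0.58. In IL-4, none was lower and 7 of 9 stood higher, and their median was 1.36 against 0.01 for all genes, where 17.3% were called higher and 13.4% lower. Nos2 had 35 counts in WT and 187 in cKO there, and Arg1, the arginase of IL-4-treated macrophages, had 42592 and 40252 counts. In the IL-4 response Arg1 had 20 and 14 counts in NT, and Saa3 was the lowest of the list at -2.71 in WT and -0.78 in cKO. Of the list, 4 of 8 were higher and 4 lower in WT (41.3% and 23.1% of all genes) and 7 of 9 higher and 1 lower in cKO (44.7% and 26.2%). Csf3r, the receptor for G-CSF and a gene of neutrophils, is on the list and went from 35.6 to 330.2 CPM in WT and from 28.1 to 424 CPM in cKO. It is also among the 9 genes called higher after LPS, where the neutrophil markers summed to 4.22 CPM in WT and 2.56 CPM in cKO. The neutrophil markers of the IL-4 libraries summed to 382 CPM in WT and 514 CPM in cKO, and their part in the counts of this list was not tested.

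**Figure D4:**
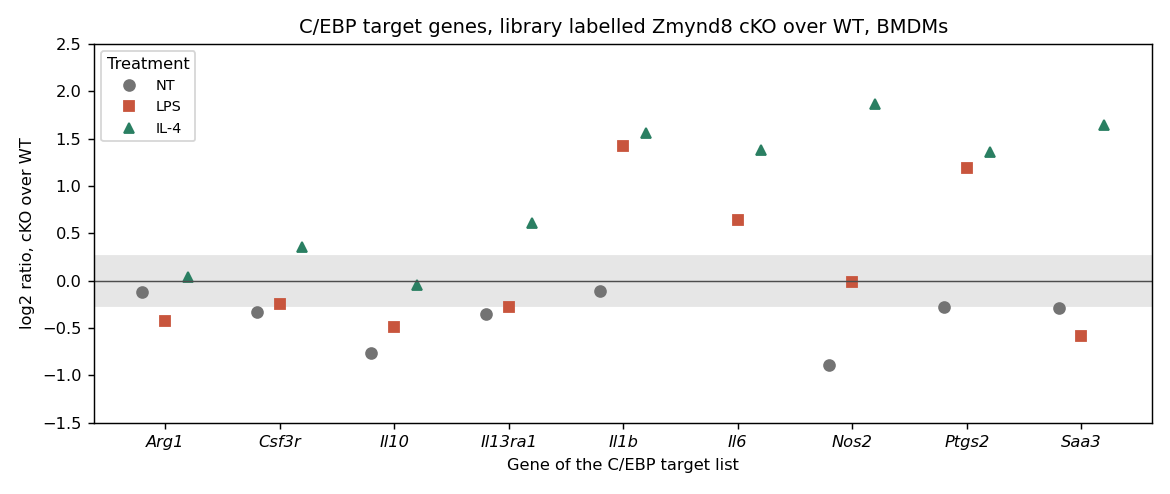
Log2 ratio of the library labelled Zmynd8 cKO over WT for the 9 genes of the C/EBP target list in NT (circles), LPS (squares) and IL-4 (triangles), where the mean reached 10 counts. The grey band marks less than 1.2-fold. In NT all points lie below 0, and after IL-4 7 of 9 lie above the band.

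The 11 listed PU.1 target genes showed no common direction in BMDMs. Between genotypes 2 were higher and 4 lower in NT (median -0.21), against 25% and 29% of all genes. After LPS 3 and 0 were (median -0.02), against 22.6% and 13.3%, and in IL-4 2 and 2 (median 0.05), against 17.3% and 13.4%. In NT they ran from Cd68, a lysosomal glycoprotein, at 0.44 to Cybb, the NADPH oxidase subunit, at -0.84. After LPS Itgam, an integrin chain, was highest at 0.66 and Cd68 lowest at -0.21. After IL-4 the scavenger receptor Msr1 was highest at 0.60 and the LPS receptor Tlr4 lowest at -0.46. In the LPS response 3 were higher and 8 lower in WT (21.7% and 63.1% of all genes) and 4 and 5 in cKO (25% and 60.5%), and Csf1r, the M-CSF receptor, was lowest in both (-1.55 and -1.55). The highest were Fcgr3 in WT at 1.37 and Cybb in cKO at 2.40. In the IL-4 response 4 were higher and 4 lower in WT (41.3% and 23.1% of all genes) and 5 and 4 in cKO (44.7% and 26.2%). Csf1r was highest in WT at 1.44, Cybb in cKO at 1.76, and the Fc receptor Fcgr1 was lowest in both, at -2.62 and -1.55.

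The genes whose profiles lay nearest to each member over the 6 BMDM libraries were found by the root mean square distance of centred log2(CPM + 1) values among 9933 genes that averaged 100 counts or more. For Zeb2 they were Nipbl (distance 0.07) and Gabpb2 (0.13), against a spread of Zeb2 itself of 0.85 on the same scale. For Runx1 they were Zfp266 (0.06) and Mapk14 (0.07), with a spread of 0.79. Cebpa was nearest to S1pr1 and Slc37a2 (0.19 and 0.20, spread 1.88), Cebpb to Pla2r1 and Pml (0.15 and 0.16, spread 1.28), and Klf4 to H2-DMa and Gpc1 (0.21 and 0.23, spread 0.98). Spi1 was nearest to Plgrkt and Ttll3 (0.09 and 0.09, spread 0.39), Maf to Igf2bp3 and Homer1 (0.19 and 0.19, spread 0.59), and Cebpd to Emilin2 and 4921524J17Rik (0.22 and 0.25, spread 0.53). The 6 points of a profile share libraries, so no p-value is given.

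In the Raw264.7 libraries the clearest contrast was between the p65 lines and the Zmynd8 lines. The deposited values are reads divided by a size factor, and whole reads could be recovered for 100% of values in each library but Zmynd8 KO (99.9954%), within 0.01 read. Levels are given here as CPM of those reads. The lines came from separate tables and differ in the markers of macrophages and of other cells given above, and LPS is in the titles of the p65 lines alone, so their levels are set side by side without a ratio. Maf had 397 CPM in the Zmynd8 rescue, 538 in D/E-A and 419 in Zmynd8 KO. In the p65 lines it had 0 reads with WT p65 (exact upper limit 0.235 CPM), 1 read in p65 KO, and was not listed in the K122R table. Cebpb stood at 755, 712 and 778 CPM in the Zmynd8 lines and at 75.2 CPM with WT p65, 87.5 with K122R and 88.3 in p65 KO. Cebpd had 154 to 263 CPM in the Zmynd8 lines and 50.7 to 71.2 CPM in the p65 lines, and Spi1 724 to 893 and 384 to 508 CPM. Runx1 overlapped between them, with 42.1 to 61.3 and 39.5 to 48.9 CPM, as did Cebpa, with 10.8 to 21.4 and 8.94 to 21.1 CPM, and Zeb2, with 194 to 413 and 393 to 468 CPM. Klf4 ran the other way, with 2.55 to 4.96 CPM in the Zmynd8 lines and 6.32 to 13.5 CPM in the p65 lines.

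**Figure D5:**
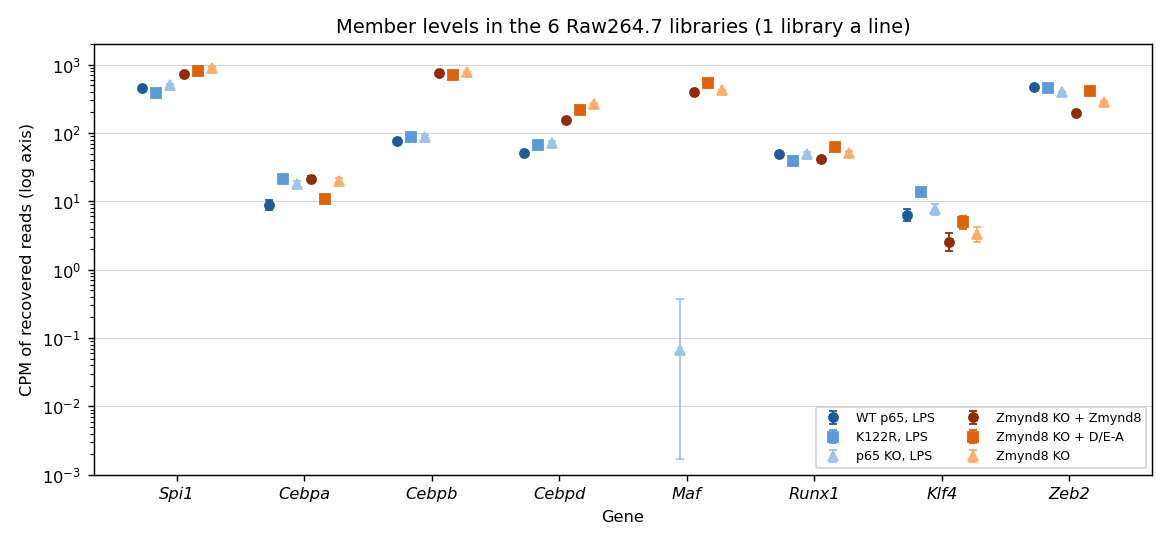
Level of each member in the 6 Raw264.7 libraries in CPM of recovered reads (log axis), with the p65 lines in blue and the Zmynd8 lines in orange to brown, and 95% counting limits. Maf with WT p65 (0 reads) and K122R (not listed) have no point. Maf and Cebpb separate the 2 sets of lines, while Cebpa, Runx1 and Zeb2 overlap.

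Within the Zmynd8 tables, the D/E-A library had more Zeb2 and less Cebpa than the Zmynd8 rescue. Ratios here are log2 of the deposited value plus 1. In D/E-A 6 of 8 members passed 1.2-fold, 5 higher and 1 lower, where 72.6% of the 12771 listed genes did (36.7% higher and 35.9% lower), so the count is not a result about the members. The D/E-A table lists no gene under 21 reads in the rescue library but goes down to 0 reads in D/E-A, so a gene under 21 reads in the rescue is not in that background, whatever its level in D/E-A. Zeb2 was 2.17-fold higher (1.12, 1.06 to 1.17), from 3577 to 7400 reads, and Cebpa 1.94-fold lower (-0.96, -1.22 to -0.71), from 394 to 193 reads. Klf4 was higher by 0.97, on 47 and 89 reads only. Runx1 (0.57), Cebpd (0.54) and Maf (0.47) were higher, and Spi1 (0.19) and Cebpb (-0.05) were within 1.2-fold. In Zmynd8 KO 5 of 8 passed, all higher, against 70.3% of 21302 genes (33.8% higher and 36.5% lower). Cebpd led at 0.85 (0.78 to 0.91), from 2836 to 5543 reads, followed by Zeb2 at 0.61 (0.55 to 0.67), Klf4 at 0.43 (47 and 69 reads, with limits of -0.12 to 1.00), Spi1 at 0.38 and Runx1 at 0.36. Cebpa (-0.04), Cebpb (0.12) and Maf (0.15) were within 1.2-fold. Both comparisons share the rescue library. The treatment of Zmynd8 KO is not given, so line and LPS cannot be told apart in its ratios over the rescue. The macrophage markers summed to 4978 CPM in the rescue, 9447 in D/E-A and 6388 in KO (2873, 4455 and 3695 CPM without Lyz2), and the neutrophil markers to 10353, 4422 and 6966 CPM. Their part in the members' ratios was not tested. At 2-fold, 1 member (Zeb2) passed in D/E-A, against 18.4% of genes, and 0 in KO, against 25.6%. The exact binomial test on the reads, with the 1.2-fold rule, called 7841 genes in D/E-A and 6683 in KO, and 6 and 4 members, Klf4 in KO being the member lost.

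PU.1 target genes stood higher in both, 10 of 11 in D/E-A with a median of 0.69 and 10 of 11 in KO with a median of 0.43, where 36.7% and 33.8% of all genes were called higher and 35.9% and 36.5% lower. Csf1r was highest in D/E-A at 1.30 and Itgam in KO at 0.62, and Btk, a kinase shared with B cells, was lowest in both at 0.14 and 0.04. Csf1r, Itgam, Cd68 and Fcgr1 are also on the macrophage marker list, whose sum moved the same way, while the neutrophil marker sum moved the opposite way. Of the C/EBP targets, 4 of 9 were higher and 2 lower in D/E-A and 3 and 1 in KO, with Nos2 highest at 2.48 and 1.34 and Saa3 lowest at -0.55 and -0.31. Of the other myeloid factors 14 of 22 were higher and 7 lower in D/E-A and 12 and 3 in KO. Gfi1 was highest in D/E-A at 1.33 and Pparg in KO at 1.10 (33 and 78 reads), and Cebpe, the C/EBP of granulocyte maturation, was lowest in both at -1.30 and -0.60.

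Within the p65 tables, Cebpa had the largest ratio over the WT p65 library in both comparisons among the 7 members tested. Maf, not listed in K122R and at 1 read in p65 KO and 0 in WT p65, was not tested. In K122R 4 of the 7 members listed passed 1.2-fold, all higher, against 63.3% of 19670 genes (30.8% higher and 32.5% lower). Cebpa was 2.60-fold higher (1.38, 1.10 to 1.68), from 140 to 352 reads, and Klf4 2.35-fold (1.23, 0.89 to 1.60), from 99 to 225 reads. Cebpd (0.55) and Cebpb (0.36) were also higher, and Spi1 (-0.08), Runx1 (-0.16) and Zeb2 (0.08) were within 1.2-fold. On CPM of the recovered reads 3 members were higher and 1 lower, against 44.66% of all genes called. Cebpb (0.22) lost its call and Runx1 (-0.30) was called lower, and Zeb2 was at -0.06. In p65 KO 3 of 7 members passed, all higher, against 51.9% of 19879 genes (26.3% higher and 25.7% lower). Cebpa was again highest at 0.99 (0.70 to 1.30), from 140 to 270 reads, with Cebpd at 0.49 and Klf4 at 0.29 (99 and 117 reads, limits -0.11 to 0.69). On CPM of the recovered reads Klf4 was at 0.25 and lost its call, which left 2 members, against 29.95% of all genes. The macrophage markers summed to 1905 CPM with WT p65, 2281 with K122R and 2266 in p65 KO, and their part in these ratios was not tested. Rela had 1601 reads with WT p65, 5850 with K122R and 765 in p65 KO, and Zmynd8 had 1826, 1070 and 1624. The part of these 2 genes was not tested either. The 2 comparisons share the WT p65 library, so the low Cebpa there enters both. Genes called higher in K122R were 48.6% of the calls on the deposited values and 31.4% on CPM of the recovered reads. At 2-fold 2 members (Cebpa and Klf4) passed in K122R, against 20% of genes, and 0 in p65 KO, against 15.8%. With a 1.2-fold difference and the exact binomial test, 5220 genes (26.5%) were called in K122R and 2620 (13.2%) in p65 KO, with 4 and 2 members.

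Of all genes 30.8% were called higher and 32.5% lower in K122R, and 26.3% and 25.7% in p65 KO. The PU.1 targets were 7 of 11 higher and 0 lower in K122R, from Tlr4 at 1.33 to Csf1r at -0.16, and 3 higher and 1 lower in p65 KO, from Csf2ra, a receptor chain for GM-CSF, at 0.65 to Cybb at -0.53. Of the C/EBP targets 6 of 9 were higher and 2 lower in K122R, with Saa3 highest at 2.70 (131 and 824 reads) and Arg1 lowest on 17 and 7 reads. In p65 KO 1 was higher and 5 lower, Il10 highest at 1.49 (39 and 108 reads) and Saa3 lowest at -2.09 (131 and 29 reads). The other myeloid factors split 9 of 20 higher and 6 lower in K122R, from Egr1 at 2.69 to Runx3 at -2.24, and 7 higher and 4 lower in p65 KO, from Id2 at 1.17 to Zeb1 at -0.96.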

How the data were processed

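RNA-seq of 6 BMDM libraries and 6 Raw264.7 libraries was used. According to the Methods, polyadenylated RNA was sequenced on an Illumina HiSeq and reads were aligned to mm10 with TopHat. For BMDMs the authors deposited estimated counts and TPM per gene, and 431 entries of the NT and LPS tables and 2 of the IL-4 table that were not genes were left out. For Raw264.7 the authors deposited a signal value per gene, reads divided by a size factor, normalized in each table separately, so ratios were taken within a table. The deposited fold changes and p-values hold the authors' own comparisons and were not used, nor were 2 unlabelled columns of per-sample values.

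Estimated counts were rounded and divided by library totals. The pseudocount was 1, and genes that averaged 10 counts or more in BMDMs, or a value of 1 or more in Raw264.7, were tested in 11 comparisons, 7 in BMDMs and 4 in Raw264.7, each of 1 library against 1. LPS and IL-4 responses set libraries of separate tables side by side. No p-value for a condition can be had. Two-sided exact binomial tests with Benjamini-Hochberg adjustment (threshold 0.05), and the exact test of edgeR 4.0.16 in R 4.3.3 with an assumed variation, compare libraries. Python 3.11.15 and SciPy 1.17.1 were used. Scripts were tested on simulated data. Named genes are all members, the highest and lowest gene of each list per comparison (averaging 100 counts, or a value of 10, or more), and the 2 nearest profiles. 1 gene that this rule names is not reported here. Members and lists were chosen with earlier results of these data known. Alternatives were scaling by the median of ratios or TMM, CPM of recovered reads, TPM, a pseudocount of 0.1, other filters, a fold of 2 and the tests above.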

Additional observations from a re-analysis of the deposited data

Results flagged for a closer look

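In 4 members the ratio of the library labelled Zmynd8 cKO over WT passed 1.2-fold in opposite directions in NT and after LPS. Cebpb was at -1.04 in NT and 0.44 after LPS on the log2 scale, Maf at -0.68 and 0.32, Runx1 at -0.27 and 0.40, and Zeb2 at -0.95 and 0.63. Maf also went from -0.68 in NT to 0.92 after IL-4, and Klf4 went the other way, from 0.47 in NT to -0.78 after IL-4. With TMM Runx1 was at -0.25 in NT and was not called there, and on the deposited TPM values Klf4 was at 0.24 in NT and was not called. Each group is 1 library, so these differences between treatments were not tested. Of all genes tested in both, 12% were lower in NT and higher after LPS, 4.77% lower in NT and higher after IL-4, and 2.48% higher in NT and lower after IL-4.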

How the results depend on the processing

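Of 91 alternative counts of members, 73 were within 1.5 times the main count and 18 were not, and all 18 came from a fold of 2 or from the edgeR exact test with an assumed coefficient of variation of 0.2 (adjusted p under 0.05). With a fold of 2, the members past it between genotypes were 1 in NT, 0 after LPS and 1 after IL-4, in the LPS response 5 in WT and 3 in cKO, in the IL-4 response 4 in WT and 1 in cKO, and in Raw264.7 1 in D/E-A, 0 in Zmynd8 KO, 2 in K122R and 0 in p65 KO. The edgeR counts were 0, 0 and 0 between genotypes, 5 and 3 for LPS and 2 and 1 for IL-4. Over all genes, in the same order, the calls went from 6729, 4449, 4065, 10862, 10829, 8436, 9197, 9271, 14978, 12453 and 10325 to 477, 112, 261, 5548, 5825, 2124, 2740, 2345, 5460, 3926 and 3149 with a fold of 2, and the edgeR test gave 273, 37, 160, 6729, 6916, 2355 and 3039 in BMDMs. The exact binomial test left 6683 calls in Zmynd8 KO, 5220 in K122R and 2620 in p65 KO, where CPM of recovered reads left 5954 and a mean value of at least 5 left 6514. Of 714 alternative values of members, 613 moved by less than their counting limits, 99 moved further and 2 changed a called direction, Maf in the LPS response of WT, from -0.27 to 0.34 with the median of ratios and 0.32 with TMM. The share of called genes that were higher in the IL-4 response of cKO went from 63.1% to 76.6% on TPM. Replicates could not be left out with 1 library a group. No paired analysis was possible because each group is 1 library. Depth limits Klf4 in the Zmynd8 lines, with 47 to 89 reads.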
